A study of Mus musculus with 302 samples.

Results

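The 75 livers with the highest and the 75 with the lowest expression of the interferon-induced genes Ifit1 and Ifit3 were compared, out of 302 livers from an F2 intercross of the mouse strains C57BL/6J and C3H/HeJ. The first set is called interferon-high and the second interferon-low, and 152 livers lay between them. Both sets hold F2 mice of the same cross, which differ among themselves in genotype. All were fed chow with 4% fat until 8 weeks of age, then a Western diet with 42% fat and 0.15% cholesterol for 12 weeks, and were killed at 20 weeks after a fast of 12 h. No infection or interferon treatment is named in the labels, and no genotype, cross direction, sex or liver trait is given for a mouse. Each liver was hybridised on its own 2-colour array against 1 pool of RNA from all livers, and the values were read as log10 of the liver over the pool, although the labels state neither the log base nor the direction. A value of 0 therefore means the level of the pool.

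Mice were ranked by a score, the mean of Ifit1 and Ifit3 after each was centred and standardised. Centring was done within 4 blocks of mice, set by whether the Y-linked gene Eif2s3y lay below or above -0.8 and whether the mouse number in the label was at most 212 or higher. Interferon-high livers scored between 0.676 and 3.42 with a median of 1.13, and interferon-low livers between -2.98 and -0.693 with a median of -1.15. The last liver inside the interferon-high set scored 0.676 and the first outside it 0.648, and at the lower edge the scores were -0.693 inside and -0.673 outside, so the edges are cuts through a continuous range. Ifit1 ran from -0.132 through a median of 0.162 to 0.445 in interferon-high livers, against -0.447, -0.242 and -0.0343 in interferon-low livers. Ifit3 ran from -0.0564 through 0.184 to 0.453 in interferon-high livers, against -0.522, -0.208 and -0.0210 in interferon-low livers. The groups differed 2.48-fold in Ifit1 and 2.47-fold in Ifit3. These values chose the mice, and they carry no test.

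Interferons are secreted cytokines. Type I interferons (alpha and beta) act on almost every cell through the receptor Ifnar1/Ifnar2 and factors that include Stat2 and Irf9, which bind the interferon-stimulated response element, or ISRE, in the promoters of antiviral genes. Type II interferon (gamma), made mainly by T and NK cells, acts through the gamma-activated site, or GAS, and induces chemokines, antigen processing and large GTPases that attack pathogen vacuoles. In liver, Kupffer cells, the resident macrophages, and hepatocytes both respond.

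The promoter stretches below are shown because they belong to the scored genes and to genes with some of the largest differences reported here. Only promoters with an ISRE match were chosen, so their likeness at the capitals follows from that choice. Sequences are from RefSeq on the build GRCm38.p6, in the direction of the gene, and cover the matches with 30 bases on each side. Capitals mark matches to the ISRE core, GAAA, any 2 bases and GAAA again, on either strand and, in Tgtp1, Igtp and Irgm2, also a match to the GAS letters TTCNNNGAA.

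Ifit1: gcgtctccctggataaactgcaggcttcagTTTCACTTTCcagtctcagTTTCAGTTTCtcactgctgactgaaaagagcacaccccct
Ifit3: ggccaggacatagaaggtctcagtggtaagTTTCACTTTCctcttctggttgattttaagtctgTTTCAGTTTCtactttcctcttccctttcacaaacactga
Rsad2: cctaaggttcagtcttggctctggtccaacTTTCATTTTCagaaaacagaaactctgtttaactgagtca
Cxcl10: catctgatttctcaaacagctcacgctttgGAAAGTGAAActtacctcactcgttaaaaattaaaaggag
Ddx60: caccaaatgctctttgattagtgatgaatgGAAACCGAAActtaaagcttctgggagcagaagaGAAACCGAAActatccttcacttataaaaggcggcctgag
Gbp3: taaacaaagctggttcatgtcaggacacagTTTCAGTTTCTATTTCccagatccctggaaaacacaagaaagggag
Tgtp1: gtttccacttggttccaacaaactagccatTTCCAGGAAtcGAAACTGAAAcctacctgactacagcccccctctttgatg
Igtp: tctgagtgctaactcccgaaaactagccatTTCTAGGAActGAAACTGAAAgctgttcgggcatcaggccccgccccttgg
Irgm2: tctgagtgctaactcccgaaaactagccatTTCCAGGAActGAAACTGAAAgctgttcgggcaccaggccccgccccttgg

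These stretches lie at chr19:34640755-34640843 (Ifit1, plus strand), chr19:34583343-34583446 (Ifit3, plus), chr12:26456533-26456602 (Rsad2, minus) and chr5:92349063-92349132 (Cxcl10, minus). Those of Ddx60, Gbp3 and Tgtp1 lie at chr8:61928004-61928107 (plus), chr3:142559969-142560044 (plus) and chr11:48992284-48992364 (minus). Those of Igtp and Irgm2 lie at chr11:58199481-58199561 and chr11:58214872-58214952, both on the plus strand. Ifit1 has ISRE matches starting 104 and 85 bases before the gene's start, and Ifit3 has them at 156 and 122 bases. The 2 matches in Gbp3 overlap. In the GTPase genes Tgtp1, Igtp and Irgm2 a GAS match is followed after 2 bases by an ISRE match, and the flanks of Igtp and Irgm2 are nearly the same sequence.

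Over 21705 features (genes, or probes without a gene name) other than Ifit1 and Ifit3, 1104 differed between the groups at an adjusted p under 0.05, which is 5.09% (limma with the 4 blocks as a term, Benjamini-Hochberg). Of these, 688 were higher in interferon-high livers (3.17%) and 416 were lower (1.92%). With the slope on the score over all 302 mice 1018 were higher and 1004 lower, and with mice chosen by Ifit3 alone 1023 were higher and 1024 lower, so the calls were nearly even in both. Without the block 573 were higher and 267 lower. Larger differences were rarer and lay mostly on the higher side, with 120 features at least 25% higher (0.553%) and 30 at least 20% lower (0.138%). The median ratio over all features was 0.993. The plot of difference against adjusted p has its far right side filled by interferon-induced genes and a shorter left side, on which Cidea and Plin4 lie farthest out. Of the 688 higher features 626, and of the 416 lower ones 339, had the same sign in all 4 blocks. The calls came from these same mice, so such agreement follows in part from the call. The share over all features is not given here.

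**Figure D1:**
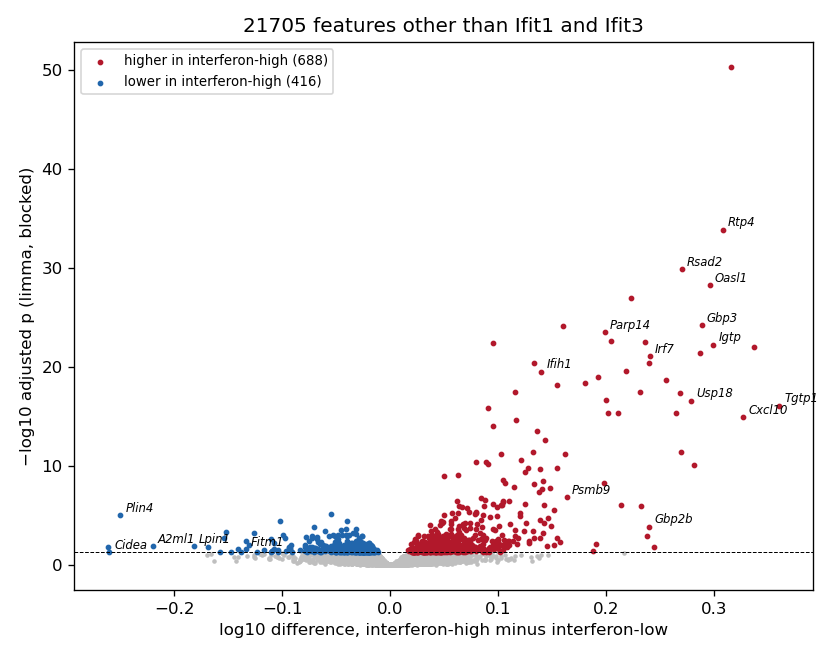
Difference between interferon-high and interferon-low livers (x axis, log10 of the ratio) against −log10 of the adjusted p (y axis) for 21705 features, with the 688 higher features in red, the 416 lower ones in blue and the threshold of 0.05 dashed. Rtp4, Rsad2 and Oasl1 stand highest among the named genes, Tgtp1 and Cxcl10 lie farthest right, and Cidea and Plin4 lie farthest left.

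Of the 10813 named genes, 626 were called (5.79%), 413 higher (3.82%) and 213 lower (1.97%). Of the 89 named genes at least 25% higher, 56 belong to 7 lists of interferon, sensor and MHC class I genes, which together hold 170 measured genes. These 89 are 0.823% of the named genes, and the 18 that were at least 20% lower are 0.166%. Of these 18, 15 stood on none of the 36 lists of pathways and cell types.

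The antiviral effectors, the classical products of type I interferon, were mostly higher. Of 69 measured, 46 were higher, 0 were lower and the median ratio was 1.23. Rtp4, a chaperone of opioid receptors that is interferon-induced, had values of -0.247, 0.0893 and 0.399 (lowest, median, highest) in interferon-high livers, against -0.485, -0.211 and 0.0731 in interferon-low livers. The groups overlapped, but 43 of 75 interferon-high livers lay above every interferon-low liver. Its ratio was 2.03 (95% interval 1.88 to 2.20, adjusted p = 1.37e-34).

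Rsad2, which makes the chain-terminating nucleotide that blocks viral polymerases, ran from -0.157 through 0.117 to 0.371 in interferon-high livers, against -0.476, -0.150 and 0.0444 in interferon-low livers. Here 53 of 75 interferon-high livers lay above the highest interferon-low liver, and the ratio was 1.86 (1.73 to 2.01, adjusted p = 1.25e-30). Oasl1, a relative of the oligoadenylate synthetases that in mouse restrains the translation of Irf7, had -0.212, 0.0773 and 0.606 in interferon-high livers, against -0.542, -0.209 and 0.0847 in interferon-low livers. Its ratio was 1.98 (1.81 to 2.16, adjusted p = 5.1e-29), and 74 of 75 interferon-high livers lay above the interferon-low median.

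Ifit2, of the same protein family as Ifit1 and Ifit3 and on the same chromosome 19, was 1.94-fold higher (adjusted p = 3.66e-22). Its values were -0.293, 0.129 and 0.488 in interferon-high livers, against -0.406, -0.178 and 0.0761 in interferon-low livers. The helicase-like Ddx60, a partner of RNA sensors, was 1.74-fold higher, Parp14, an ADP-ribosyltransferase, 1.58-fold and the adenosine deaminase Adar, which edits double-stranded RNA, 1.23-fold.

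The oligoadenylate synthetases, which make the second messenger that activates RNase L, were not uniform. Oas1g (ratio 1.65), Oas1c (1.52), Oas2 (1.39) and Oas1a (1.37) were higher, while Oas3 (0.996), Oas1b (0.986), Oas1e (0.965) and Oas1d (0.930) were not called. Adjusted p-values of these 4 uncalled genes ran from 0.0620 for Oas1d to 0.922 for Oas3. The antiviral GTPase Mx2 was 1.34-fold higher, and Mx1, its paralogue, had a ratio of 1.1 that was not called. Probes of such families may read more than 1 of the copies, and several genes had probes that disagreed. The ratios of the probes were 1.36 and 0.940 for Ifi203, and 1.56, 1.41 and 0.970 for Ifi204. Isg15 is not among the genes analysed here.

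**Figure D2:**
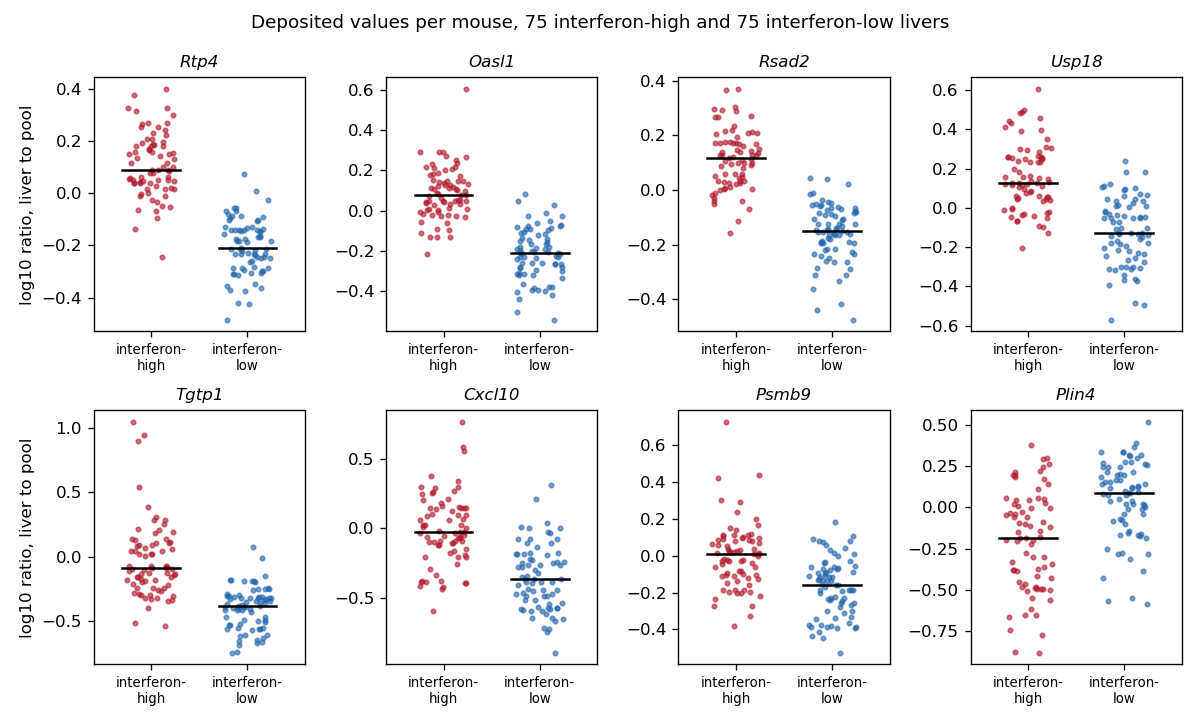
Deposited values (log10 ratio of liver to pool) of 8 genes in each of the 75 interferon-high (red, left) and 75 interferon-low livers (blue, right), with medians as bars. Rtp4, Oasl1 and Rsad2 overlap little, Cxcl10 and Psmb9 overlap more, and Plin4 runs the other way with medians of -0.182 in interferon-high and 0.0885 in interferon-low livers.

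The interferon-inducible GTPases, which coat and break the vacuoles of intracellular pathogens, had the highest share called of any list. Of 15 measured, 12 were higher, 0 were lower and the median ratio was 1.58. Tgtp1 had the largest difference of all named genes, a ratio of 2.29 (1.96 to 2.68, adjusted p = 7.67e-17). It ran from -0.538 through -0.0898 to 1.05 in interferon-high livers, against -0.749, -0.382 and 0.0712 in interferon-low livers. Most interferon-high livers lay inside the interferon-low range, but 22 lay above it, and the highest exceeded the pool by about 1 log10 unit.

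Igtp was 1.99-fold (adjusted p = 5.66e-23), Gbp3 1.94-fold, Gbp8 1.86-fold and Irgm2 1.84-fold higher. Irgm1, which regulates the other Irg proteins, differed less (ratio 1.6) with a narrower spread, so that 53 of 75 interferon-high livers lay above the highest interferon-low one. Its values were -0.151, 0.0818 and 0.794 in interferon-high livers, against -0.317, -0.122 and 0.0197 in interferon-low livers. Gbp2b had the widest values of these genes, from -1.0 through 0.00567 to 1.34 in interferon-high livers, against -0.833, -0.230 and 0.256 in interferon-low livers. The ratio of Gbp2b was 1.74 (1.41 to 2.15, adjusted p = 0.00013). The probes of Gvin1, a very large GTPase, ranged in ratio from 0.925 to 1.55, and those of Iigp1 had 1.30 and 0.995.

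Targets of type II interferon were called less evenly, with 12 of 23 higher, 1 lower and a median ratio of 1.12. The chemokines that draw T cells through Cxcr3 were higher, Cxcl10 by 2.12-fold (1.83 to 2.46, adjusted p = 1.07e-15), Cxcl9 by 1.64-fold and Cxcl11 by 1.11-fold. Cxcl10 values were -0.594, -0.0266 and 0.765 in interferon-high livers, against -0.893, -0.361 and 0.308 in interferon-low livers, and 5 interferon-high livers lay above all interferon-low ones. The checkpoint ligand gene Cd274 was 1.38-fold and the Fc receptor gene Fcgr1 1.41-fold higher. The tryptophan-degrading Ido1 (0.992), the nitric oxide synthase Nos2 (0.979) and the class II regulator Ciita (1.04) were not called. The lower member was Il12rb1, a subunit of the interleukin-12 receptor, with a ratio of 0.866 (adjusted p = 0.0302).

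Among receptors and signal components, 10 of 25 were higher and 0 lower, with a median ratio of 1.07. Usp18, the protease that removes ISG15 and damps the type I receptor, was 1.90-fold higher (1.69 to 2.14, adjusted p = 2.48e-17), with values of -0.207, 0.127 and 0.606 in interferon-high livers, against -0.571, -0.126 and 0.241 in interferon-low livers. Irf7, the factor that amplifies interferon alpha production, was 1.74-fold higher, and only 10 of 75 interferon-high livers exceeded every interferon-low liver.

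Irf9, the DNA-binding part of the ISRE complex, differed by a small but tight 1.24-fold (1.20 to 1.28, adjusted p = 3.57e-23). Its values were -0.0578, 0.0579 and 0.192 in interferon-high livers, against -0.127, -0.0418 and 0.0417 in interferon-low livers, and 48 of 75 interferon-high livers lay above the whole interferon-low range. Stat2 was 1.16-fold, Irf1 1.33-fold and the feedback inhibitor Socs1 1.32-fold higher. The receptor chains Ifnar2 (1.1) and Ifngr2 (1.08) were called, and Ifnar1 (1.06), Ifngr1 (1.06), Jak1 (1.04), Jak2 (1.03) and Tyk2 (1.04) were not.

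Of 5 measured interferon genes, only Ifng was called, at 1.17-fold higher (log10 difference 0.0674, SE 0.0152, limma adjusted p = 0.0019). Its values were -0.143, 0.0109 and 0.809 in interferon-high livers, against -0.311, -0.0413 and 0.149 in interferon-low livers. The ratios of Ifna1, Ifna2, Ifna12 and Ifnb1 lay between 0.950 and 0.988. None of these was called, and a difference too small for this precision could be missed. The number of RNA copies behind the values is unknown. Whether the signal of any of the 5 genes, Ifng among them, lay above background was not tested.

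**Figure D3:**
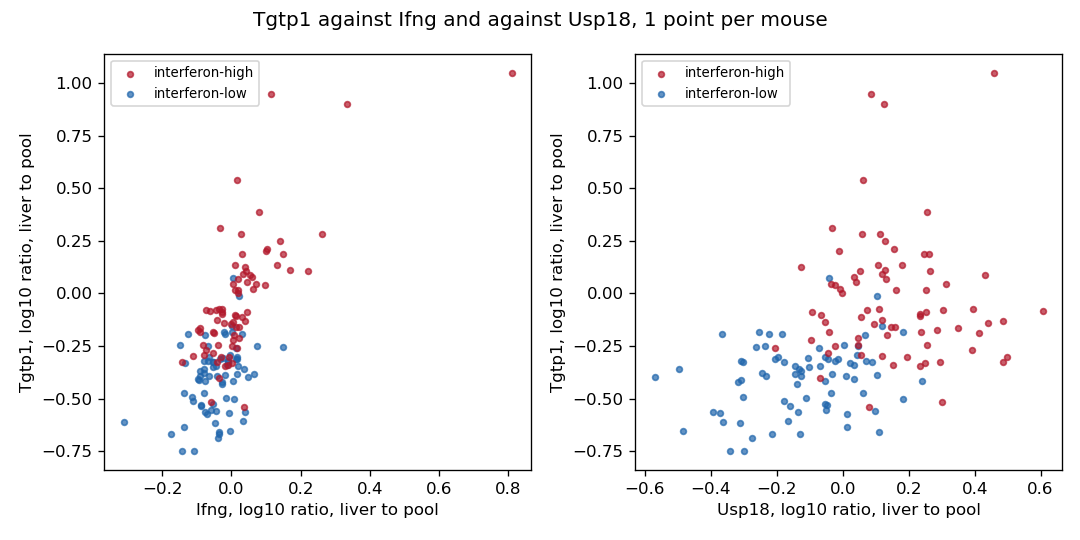
Tgtp1 (y axis) against Ifng (left panel) and against Usp18 (right panel), 1 point per liver in log10 ratio to the pool, with interferon-high livers in red and interferon-low livers in blue. The liver with the highest Tgtp1, 1.05, also has the highest Ifng, 0.809, while the liver with the highest Usp18, 0.606, has Tgtp1 at -0.0827.

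Sensors of nucleic acid and their adaptors had 7 of 18 members higher and 1 lower, with a median ratio of 1.07. The sensor of long double-stranded RNA, Ifih1, was 1.38-fold (adjusted p = 3.04e-20) and the endosomal Tlr3 1.30-fold higher. Samhd1, which degrades deoxynucleotides and restricts viruses, was 1.27-fold and Zbp1, the sensor of Z-form nucleic acid, 1.21-fold higher. Tlr9, the receptor for bacterial DNA, was lower at 0.950 (adjusted p = 0.0442). Shared adaptors and kinases showed small ratios that were not called, such as Myd88 (1.0), Traf6 (0.995) and Irak1 (0.981), and also Tlr4 (1.09), whose protein is inactive in C3H/HeJ.

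The antigen processing genes that replace parts of the proteasome and load MHC class I were higher in part, and no gene of the standard proteasome was called. Of 26 MHC class I and processing genes, 9 were higher and 0 lower, with a median ratio of 1.07. Psmb9, an immunoproteasome subunit, was 1.46-fold higher (1.30 to 1.63, adjusted p = 1.43e-07), with values of -0.382, 0.00712 and 0.728 in interferon-high livers, against -0.527, -0.156 and 0.184 in interferon-low livers. The peptide transporter Tap1 was 1.36-fold, the subunit Psmb8 1.32-fold and the class I gene H2-K1 1.17-fold higher. B2m, the light chain of class I molecules, had a ratio of 1.08 that was not called. Of 22 constitutive proteasome genes, 0 were called in either direction, and their ratios lay between 0.941 and 1.04. Daxx, H2-K1, H2-DMb1, Psmb9, Tap1, Psmb8 and Tap2 lie close together on chromosome 17, in the stretch of 40 measured neighbours from Cyp4f15 to Notch4 with 11 genes called, the most on any chromosome. Linked variants and the response itself cannot be told apart for these genes, since no genotype was used. The share of genes called per chromosome ran from 4.08% on X to 7.59% on 17, leaving aside Y with 0 of 8 genes called, and was 6.41% on 19, which holds the scored genes.

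Of 71 named genes at least 25% higher with a promoter in the table, 23 (32.4%) held an ISRE match in any of their promoters. The window ran from 250 bases before to 50 bases after the start. The share was 7.94% of 252 genes called higher by less, 2.35% of 170 called lower and 3.71% of 8095 not called. It was 4.04% of all 8588 named genes with a promoter. Counted per promoter and not per gene, it was 3.44% of all 32851 in the table. For the GAS letters the shares were 16.9%, 7.94%, 10% and 8.35% over the same 4 sets. They were 8.44% of all named genes with a promoter and, counted per promoter, 8.30%. Of the 12 genes with a promoter in the table among the 15 with the largest positive differences, 8 held an ISRE match. Oasl1, Oasl2, Irf7 and Ifit2 did not hold these letters in the window. Since many of these genes are known for their response elements, the shares describe the set and are no evidence about which factor acted. A match is not a measured binding site.

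Among the lists of immune cell markers, that of macrophages and Kupffer cells had the largest share called higher. Of its 28 measured markers, 14 were higher and 0 lower, with a median ratio of 1.17. The ratio lay above 1 for 24 of them, and the lowest was 0.893. When mice were chosen by Ifit1 alone 5 were higher, and 15 when chosen by Ifit3 alone. Mpeg1, a pore-forming protein of macrophages, was 1.38-fold (adjusted p = 2.97e-05), the surface receptor Adgre1 1.31-fold, the secreted Cd5l 1.28-fold and the scavenger receptor Msr1 1.27-fold higher. Cd163 (1.0) and Cd52 (0.996) had the smallest differences. The mean of the list ran from -0.247 through a median of -0.0476 to 0.297 in interferon-high livers, against -0.359, -0.0856 and 0.152 in interferon-low livers, so the groups overlapped widely. Clec4f, a marker of Kupffer cells chosen for mention after its values were seen, was also higher (95% interval of the ratio 1.17 to 1.35, adjusted p = 1.3e-06). In whole liver, more cells of a type and more of its RNA per cell cannot be told apart.

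T and NK cell markers were higher in 7 of 26 and lower in 0, with a median ratio of 1.03. With mice chosen by Ifit1 alone 4 were higher. Ccl5 was 1.31-fold, Cd3g, a chain of the T cell receptor complex, 1.16-fold, the granzyme Gzma 1.15-fold and Cxcr6 1.14-fold higher, while Cd3e (1.0) and Cd247 (1.0) were not called. The mean of this list ran from -0.0662 through -0.00898 to 0.194 in interferon-high livers, against -0.101, -0.0267 and 0.0824 in interferon-low livers. Of 12 B and plasma cell markers 1 was higher (Cd22, ratio 1.28), as was 1 of 9 dendritic cell markers (Bst2, itself interferon-induced), and 0 of 13 neutrophil markers were called. With the macrophage mean and the T and NK mean of each liver as covariates, 41 antiviral effectors, 12 GTPases and 11 type II targets were called higher, and 5 MHC class I genes. In that setting 608 of 21705 features were higher. Genes called higher in the main comparison, such as Ccl5, enter these means, so the counts do not separate cell content from the response. Of the 120 features at least 25% higher, 90 remained called.

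Of 24 NF-kB targets and cytokines 5 were higher, among them the chemokines Ccl4 (1.44) and Ccl3 (1.34), Il15, which sustains NK cells (1.21), and Tnf (1.1). This count was 1 with the macrophage and T and NK means as covariates. Of 22 acute phase genes 0 were called, and their median ratio was 0.954. Serum amyloid genes had ratios of 0.771 (Saa3), 0.773 (Saa1) and 0.789 (Saa2), with adjusted p-values between 0.206 and 0.252. The neutrophil chemokine Cxcl1 had a ratio of 0.683 and an adjusted p of 0.0724.

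On the lower side, of 9 fat storage genes, 4 were lower and 0 higher, with a median ratio of 0.841. Plin4, a coat protein of lipid droplets, had the smallest ratio among named genes that kept 1 sign in all blocks, 0.562 (0.462 to 0.684, adjusted p = 8.8e-06). Its values were -0.880, -0.182 and 0.377 in interferon-high livers, against -0.587, 0.0885 and 0.519 in interferon-low livers. The ranges overlapped, and 13 of 75 interferon-high livers lay above the interferon-low median. Cidea, which enlarges droplets, had a ratio of 0.549 (0.375 to 0.804, adjusted p = 0.047) with values from -1.77 through -1.38 to 0.742 in interferon-high livers, against -1.73, -1.05 and 0.828 in interferon-low livers, but not the same sign in every block. Fitm1, which helps droplets form at the endoplasmic reticulum, was at 0.735 and Pparg, the factor that drives storage genes, at 0.834 (adjusted p = 0.0234 and 0.0100). Dgat1 (0.964) and Dgat2 (0.932), which make triglyceride, were not called. The count of 4 was 1 without the block term, and 1 when mice were chosen by Ifit3 alone, with Plin4 at 0.654 there.

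Of 16 fatty acid synthesis genes and 15 fatty acid oxidation genes 0 were called, with median ratios of 0.979 and 1.01. Cholesterol synthesis had 1 of 16 lower (Lss, 0.929). Oxidative phosphorylation had 4 of 10 lower, all by little, with ratios of 0.913 for Cox4i1, 0.923 for Ndufs4, 0.938 for Cox5a and 0.940 for Ndufa2. With the macrophage and T and NK means as covariates that count was 1. Of 6 hepatocyte markers 0 were called, with a median ratio of 0.950.

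Several other genes with large lower differences stood on none of the lists. Lpin1, a phosphatidate phosphatase of triglyceride synthesis named after its values were seen, had a ratio of 0.657 (0.528 to 0.819, adjusted p = 0.0116). Its values were -0.855, -0.0474 and 0.550 in interferon-high livers, against -0.804, 0.194 and 0.529 in interferon-low livers. The ratio of Lpin1 was 0.482 in mice with numbers up to 212 and 0.855 in those above, with the opposite sign in 1 block. A2ml1, a protease inhibitor of the alpha-2-macroglobulin family, had a ratio of 0.603 (0.463 to 0.785, adjusted p = 0.0113). In its values the ranges nearly coincide, -1.18, -0.196 and 0.428 in interferon-high livers, against -0.987, -0.0221 and 0.526 in interferon-low livers. Its ratio was 0.459 and 0.416 in the blocks with numbers above 212 but 0.956 and 0.810 in those up to 212. The deubiquitinase Usp2, whose liver RNA follows the clock, was at 0.748 (adjusted p = 0.000554) with 11 of 75 interferon-high livers above the interferon-low median. Fbf1 was at 0.677, Inhbb, a subunit of activin, at 0.695, the kinase gene Aatk at 0.701, Map3k6 at 0.723, thrombomodulin (Thbd) at 0.727 and trehalase (Treh) at 0.741. Of 14 clock genes 1 was higher and 1 lower, the repressor Nr1d1 at 1.38 (adjusted p = 0.0018) and Per1 at 0.931 (adjusted p = 0.0309).

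The 4 blocks repeat the comparison in separate mice, with 16 to 22 livers a group. All 15 named genes plotted with the largest positive differences were higher in each block by the rule that picked them. Usp18 was 2.36-fold higher in the Eif2s3y-high mice and 1.53-fold in the Eif2s3y-low mice, and Oasl1 2.25-fold and 1.74-fold. Tgtp1 ran the other way with 1.94-fold and 2.70-fold, as did Irf1 with 1.11-fold and 1.59-fold. In the test of the difference itself none of the 4 passed, with adjusted p-values of 0.204, 0.378, 0.713 and 0.321, and 1 feature of 21705 did (0.00461%), a probe with no gene name. By range of mouse numbers 0 features differed, and the smallest adjusted p was 0.101 (limma interaction terms). At an unadjusted p under 0.05 there were 1426 and 2566 features.

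**Figure D4:**
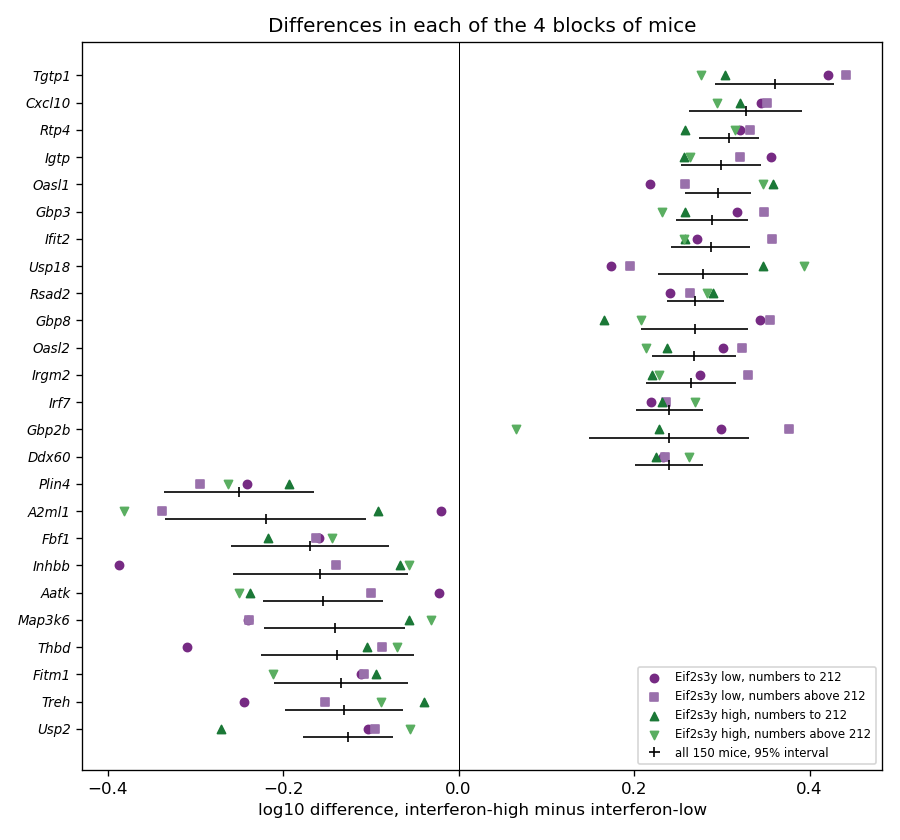
Log10 difference between interferon-high and interferon-low livers (x axis) in each of the 4 blocks of mice (coloured symbols) and over all 150 mice with its 95% interval (black), for the 15 named genes with the largest positive and the 10 with the largest negative difference among called genes that had the same sign in all 4 blocks. Usp18 and Oasl1 have their larger differences in the blocks with high Eif2s3y, Tgtp1 and Gbp8 in those with low Eif2s3y, and A2ml1 in those with mouse numbers above 212.

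The 152 livers between the groups took no part in the comparison, although they helped to set the centring and scaling of the score. Each feature was set against the score there. Their scores span less, from -0.673 to 0.648. There 9 features rose with the score at an adjusted p under 0.05 (0.0415%), and 0 fell (limma slope with blocks). The named ones were Rtp4 (adjusted p = 1.1e-05), Rsad2 (6.27e-05), Oasl1 (0.000411), Irgm1 (0.00113), Ifit2 (0.0141) and Gbp3 (0.0254), the antiviral effectors and GTPases described above. At an unadjusted p under 0.05, 518 features rose and 1030 fell. Of the 120 features at least 25% higher, 116 had a positive slope here, against 44.8% of all features. Of the 30 at least 20% lower 27 had a negative slope, against 55.2%. Both sets were called for their relation to this same score in the other mice. The shares therefore describe how they follow Ifit1 and Ifit3, and are no support apart from the rule. For Plin4 the slope was -0.00986 log10 units per unit of score and its adjusted p 0.981, and the slopes of the 10 oxidative phosphorylation genes were all at or below 0.

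One probe without a gene name had a smaller adjusted p than any named gene. Its ratio was 2.07 (1.95 to 2.19, adjusted p = 5.54e-51), and 72 of 75 interferon-high livers lay above all interferon-low livers. It also had the steepest slope among the 9 features in the livers between the groups, 0.149 log10 units per unit of score (adjusted p = 1.34e-32). Whether it reads RNA of a scored gene or of another gene was not tested, since it has no entry in the annotation used here.

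**Figure D5:**
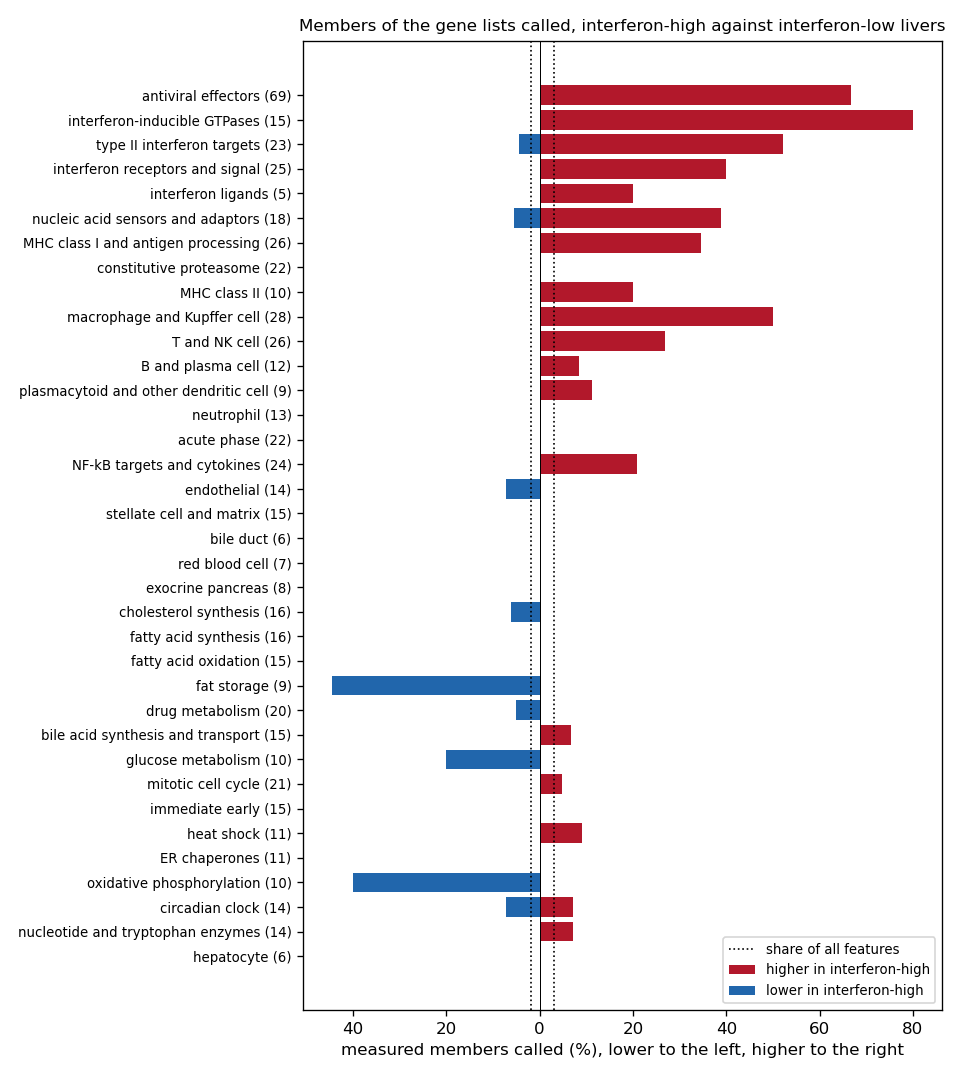
Share of measured members of each gene list that were called higher (red, right) or lower (blue, left) in interferon-high livers, with the number measured in brackets and the shares over all features dotted (3.17% and 1.92%). The GTPases (12 of 15) and antiviral effectors (46 of 69) have the largest shares higher, fat storage (4 of 9) and oxidative phosphorylation (4 of 10) the largest shares lower.

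Technical measures of the arrays were compared by permutation tests. The spread of values over an array gave an adjusted p of 0.759 and its median one of 0.140, while interferon-high arrays had 1.86 fewer missing values on average within blocks (adjusted p = 0.0269, permutation test over 3 measures). Interferon-high livers had a median mouse number of 219 and interferon-low livers one of 249, and the last sixth of the numbers, 311 to 362, held 10 interferon-high and 22 interferon-low livers. With the number within each block as a covariate, chosen after seeing this, 612 features were higher and 451 lower. Of the 30 features at least 20% lower 18 then remained called, and of the 120 higher ones 116.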

How the data were processed

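RNA of 302 F2 livers carried Cy3 and the shared pool Cy5, per the labels. The authors deposited 1 table of log ratios for 23562 probes, which was used without further normalization. How spots were extracted, background-corrected and normalized is not given in the sources used here. Values end at -2 and 2, and Eif2s3y had a median of 0.195 in 160 mice and -1.73 in the other 142, so the deposited values were taken for log10 ratios with the mouse on top, a likely reading that no label states. Of 45451 pairs of arrays 867 correlated below -0.3, the lowest at -0.507. All arrays have 1 dye orientation per the labels, so the direction was kept. Ratios of high to low are 10 to the power of the log10 difference.

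Probes with values in at least 90% of mice were kept, and the probes of a named gene (mouse gene table of GRCm38.p6) were averaged, which gave 21707 features, of which 10892 are unnamed probes. The 75 highest and 75 lowest mice by the mean of standardised Ifit1 and Ifit3 (1 probe each) were compared with limma 3.58.1 in R 4.3.3 with the 4 blocks as a term, 2-sided, with the Benjamini-Hochberg adjustment over all features other than these. The fit was run on simulated data with known changes and independent features, which does not copy the choice of mice by a score from the same arrays. The Eif2s3y clusters served as blocks and in the test of whether the difference varied between clusters, and no sex was assigned. The score comes from the measured values, so p-values say how other genes follow Ifit1 and Ifit3 among these mice. Members and lists were chosen with earlier results of these data known. Genes named in the text are the 15 highest and 10 lowest called genes with 1 sign in all blocks, members of the interferon, sensor and MHC lists, up to 4 largest and 2 smallest of each other list, and the 5 with the smallest adjusted p of each interaction test, and exceptions are stated. Alternatives changed the block, the group size, the score, the normalization, the arrays kept, the covariates, the handling of values at the limits or missing, and the features. Each array is 1 mouse, and the number of mice limits the precision.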

Additional observations from a re-analysis of the deposited data

Results flagged for a closer look

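The difference between interferon-high and interferon-low livers was not the same in both Eif2s3y clusters for 1 probe, 10024398882, which has no gene name here. Its ratio was 1.07 in the upper cluster and 0.851 in the lower one, a difference of 0.0989 log10 units (limma interaction, adjusted p = 0.0284 over 21705 features), and over all 150 mice its ratio was 0.954 (adjusted p = 0.262). The named genes nearest to the threshold in this test were Aff4, En2 and Sfrp2, with an adjusted p of 0.0621 each. Aff4 had ratios of 1.07 in the upper and 0.910 in the lower cluster. Cdkn1a, an inhibitor of cyclin-dependent kinases, had 1.23 and 0.4845 (adjusted p = 0.0828). These 4 did not pass.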

How the results depend on the processing

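The counts of features called higher lay between 573 and 1023 under the alternatives over all blocks, against 688. In each block alone they were 178 (block 1, Eif2s3y low, numbers to 212), 152 (block 2, low, above 212), 35 (block 3, high, to 212) and 49 (block 4, high, above 212), with fewer mice. The 416 lower calls were 267 without the block, 1004 with the slope over all 302 mice, 1024 with Ifit3 alone, and 61, 76, 2 and 1 in the blocks in that order. In the same order of blocks the list counts were 28 for antiviral effectors in block 1, 14 in block 3 and 17 in block 4, 6 and 7 for GTPases in blocks 3 and 4, and 7, 1 and 2 for type II targets in blocks 2, 3 and 4. They were 5, 5, 3 and 3 for receptors and signal, 2, 3, 0 and 2 for sensors, 2, 3, 0 and 0 for MHC class I, 2, 2, 0 and 0 for macrophage markers, 0, 1, 0 and 0 for T and NK markers, 1, 1, 0 and 0 for NF-kB targets, 0, 1, 0 and 0 for fat storage, and 0 in each for oxidative phosphorylation. With macrophage and T and NK means as covariates MHC class I had 5, NF-kB targets 1 and oxidative phosphorylation 1. With mice chosen by Ifit1 alone macrophage markers had 5 and T and NK markers 4. Fat storage had 1 without the block and 1 with Ifit3 alone. The 9 slopes in the livers between the groups were 5 without the block and 17 after quantile normalization. Ratios turned round in 1 block each for Ifnar2 (0.976), Psmb10 (0.990) and Trim25 (0.954). Where probes were fitted singly, a gene took the mean difference and the smallest adjusted p of its probes, so 1 called probe kept the call. Over 99 named genes and 1881 values, 1570 kept direction and call, 308 kept direction only and 3 reversed. All these genes were called in the main comparison, and some were also picked for having 1 sign in all blocks. Most alternatives reuse the same mice, so the small number of reversals follows in part from these choices. Without the mouse with the highest GTPase mean, chosen after seeing the data, 643 features were higher and 359 lower. Causes were not tested. No paired analysis was possible because each mouse is 1 sample and the labels pair none. Depth is unknown for arrays, signal over background was not used here, and small ratios such as those of Ifna1 and Ifnb1 cannot be told from probes near background.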

Other observations

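The interferon-high livers at the extremes of the score and of the GTPase mean differed in some interferon genes and not in others. The liver with the highest score, 3.42, had Usp18 at 0.606 and Rtp4 at 0.269 but Tgtp1 at -0.0827, Cxcl9 at -0.518 and a mean of -0.0196 over the GTPase list. The liver with the highest GTPase mean, 0.588, scored 1.31 and had Ifng at 0.809, Cxcl9 at 1.005, Tgtp1 at 1.05, Gbp2b at 1.34 and the T cell gene Cd3g at 0.407, with Usp18 at 0.459. Its Rtp4, at 0.399, was the highest of the interferon-high livers. The liver with the highest score came from a block with high Eif2s3y, the other from a block with low Eif2s3y. These values were not centred by block.

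Within the 75 interferon-high livers 6 pairs of genes, chosen after their values were seen, were correlated after centring in the 4 blocks (permutation tests with 100000 resamples, 2-sided, Benjamini-Hochberg over the 6). Tgtp1 followed Ifng (Pearson's r = 0.660, Spearman's rho = 0.569, adjusted p = 3e-05 for both, the smallest these resamples gave) and Cd3g (r = 0.612, rho = 0.577, adjusted p = 3e-05 for both). Without the 2 livers farthest from the median of Tgtp1, r was 0.583 with Ifng and 0.614 with Cd3g, and within blocks it lay between 0.210 and 0.861 with Ifng and between 0.467 and 0.679 with Cd3g. Usp18 followed Oasl1 (r = 0.416, rho = 0.336, adjusted p = 0.0004 and 0.006), with r of 0.327 without the 2 farthest livers, but within blocks r was 0.704 and 0.544 where Eif2s3y was high and -0.0595 and 0.0344 where it was low. Usp18 did not pass with Tgtp1 (r = 0.0517, rho = 0.0939, adjusted p = 0.861 and 0.506), Cd3g (r = 0.0428, rho = -0.0282, adjusted p = 0.861 and 0.808) or Ifng (r = 0.00960, rho = -0.184, adjusted p = 0.934 and 0.169). Within blocks r of Usp18 ran from -0.645 to 0.425 with Ifng, from -0.278 to 0.447 with Tgtp1 and from -0.0861 to 0.181 with Cd3g. All 75 livers were chosen for a high score, which narrows the range of genes that follow the score. That can weaken or change a correlation, so a low r here does not show that 2 genes vary independently. These relations were noticed in the same mice in which they were computed, and all values of a mouse share 1 array. The plot of Tgtp1 against both genes shows these livers beside the interferon-low ones.

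Genes at least 25% higher that stood on no list include the leukocyte genes Slamf8 (1.42), Lcp2 (1.30), Rac2 (1.28), Ptprc (1.27) and Itgal (1.27), and the death ligand Tnfsf10 (1.39), all named after their values were seen. The largest difference among them was that of Pianp (1.55, limma adjusted p = 0.008), which lies on the same chromosome as A2ml1.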
